A study of Homo sapiens with 24 samples.

Results

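Expression of 8 genes that hold back the growth kinase complex mTORC1 was followed in 24 polyadenylated RNA libraries from 4 established cancer cell lines. The genes were DDIT4 (the gene of REDD1) and its paralog DDIT4L, the sestrins SESN1, SESN2 and SESN3, the tuberous sclerosis genes TSC1 and TSC2, and DEPTOR. They were picked by symbol, as genes known to restrain mTORC1, and with earlier results of these data known. All 8 were present among the 23106 gene symbols counted. The lines were A549 (lung cancer), HCT-116 (colorectal cancer), PC3 (prostate cancer) and T47D (breast cancer), each kept in 21% oxygen (normoxia) or in 0.5% oxygen for 16 h (hypoxia), with 3 libraries per line and oxygen state. Each line is a single cell line with its own medium (F12K for A549 and PC3, McCoy's 5a for HCT-116, DMEM for T47D), so line and medium cannot be told apart, except that A549 and PC3 shared a medium.

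mTORC1 is a lysosomal kinase complex that drives protein synthesis and cell growth when growth factors, amino acids, energy and oxygen are plentiful. TSC1 and TSC2 form a complex that switches off RHEB, the small GTPase that activates mTORC1, and REDD1 is a stress-induced protein that acts through this complex. Sestrins restrain mTORC1 on the amino acid arm, where they bind GATOR2, with SESN2 acting as a leucine sensor, and DEPTOR binds the mTOR kinase itself. DDIT4 is a long-known target of HIF, the transcription factor stabilized in hypoxia, while SESN1 and SESN2 are known p53 targets and SESN2 is also induced by ATF4.

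Library totals were between 22698584 and 62850747 counts, and log2 levels of replicate libraries correlated with r of 0.981 to 0.994 across genes. Of 8 hypoxia marker genes, 8 were upregulated in A549, HCT-116 and T47D and 7 in PC3, where PDK1 was the exception (log2 fold change 0.11, adjusted p = 0.496, edgeR). The labelled tissues were only partly borne out by their markers. Normoxic T47D cells held ESR1 at 166 CPM (counts relative to the scaled size of the library) and PGR at 635 CPM, and PC3 cells held HOXB13 at 75.1 CPM with KLK2 and KLK3 at 0 counts. HCT-116 cells held CDX2 at 11.8 CPM, with CDX1 at 0 counts in every library and VIL1, CDH17 and LGALS4 under 0.1 CPM, and in A549 cells NAPSA, the highest of 5 lung markers, stood at 0.438 CPM in normoxia with SFTPA1 at 0 counts. Of 5 colon markers 4 passed the count filter in A549, where CDH17 stood at 14.6 CPM in normoxia, and only CDX2 did in HCT-116 cells. The lung marker NKX2-1 was at 0.936 CPM in normoxic HCT-116 cells and at 0 counts in normoxic A549 cells, and NAPSA was at 1.04 CPM in normoxic HCT-116 cells. Fold changes, standard errors and adjusted p values below come from edgeR's quasi-likelihood test within each line, and a gene was called upregulated or downregulated at an adjusted p under 0.05 with a fold change over 1.2. Nothing states that replicates were grown at separate times, so p values measure the spread between these libraries. In bulk libraries, fewer cells with a transcript and less of it per cell cannot be told apart.

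The sequence directly upstream of the start site is shown for DDIT4, the only member called in all 4 lines, for SESN2, the sestrin whose response differed between lines, and for TSC2, called in 3 lines. The RefSeq windows (table build GRCh38.p14) were each found exactly once in GRCh37 and are given with GRCh37 coordinates, 5′ to 3′ on the gene's strand, which is the plus strand for all 3. Capitals mark the HIF core motif (ACGTG or GCGTG) on either strand.
DDIT4, chr10:74033432-74033681: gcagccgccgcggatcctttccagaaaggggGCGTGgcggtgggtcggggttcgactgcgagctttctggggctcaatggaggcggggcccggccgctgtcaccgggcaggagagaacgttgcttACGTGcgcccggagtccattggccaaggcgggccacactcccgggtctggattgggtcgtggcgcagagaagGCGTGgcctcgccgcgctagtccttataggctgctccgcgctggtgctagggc
SESN2, chr1:28585779-28586028: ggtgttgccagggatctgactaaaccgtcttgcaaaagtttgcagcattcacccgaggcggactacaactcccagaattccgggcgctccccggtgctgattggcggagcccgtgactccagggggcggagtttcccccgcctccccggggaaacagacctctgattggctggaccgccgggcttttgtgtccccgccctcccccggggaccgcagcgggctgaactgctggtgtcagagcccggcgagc
TSC2, chr16:2097736-2097985: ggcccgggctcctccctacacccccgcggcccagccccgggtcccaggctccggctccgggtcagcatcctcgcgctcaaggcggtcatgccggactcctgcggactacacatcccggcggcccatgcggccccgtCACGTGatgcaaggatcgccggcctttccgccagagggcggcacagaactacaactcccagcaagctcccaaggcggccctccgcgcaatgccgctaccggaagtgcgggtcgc

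The 250 bases before the DDIT4 start site held 3 HIF core motifs, ACGTG from -125 to -121 and GCGTG from -219 to -215 and from -53 to -49, all on the gene's own strand. At least 3 such motifs were present in 7.76% of 35116 windows of the same length, ACGTG in 18.5%, GCGTG in 32.2% and either form in 43.2%. The TSC2 window held ACGTG on both strands, overlapping within the palindrome CACGTG. The ATF4 element TGATGNAA also matched there, from -110 to -103, overlapping the palindrome, and was found in 3.14% of all windows. None of these motifs was found in the window of SESN2, DDIT4L, SESN3 or TSC1. One of 3 SESN1 windows held a single GCGTG from -82 to -78, and the second TSC2 window held none. The matches are letters in a short window and were not tested for binding here. The study, by ChIP-seq, counted DDIT4 as bound by HIF in all of its lines. Whether that binding lies at these matches was not examined here.

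**Figure D1:**
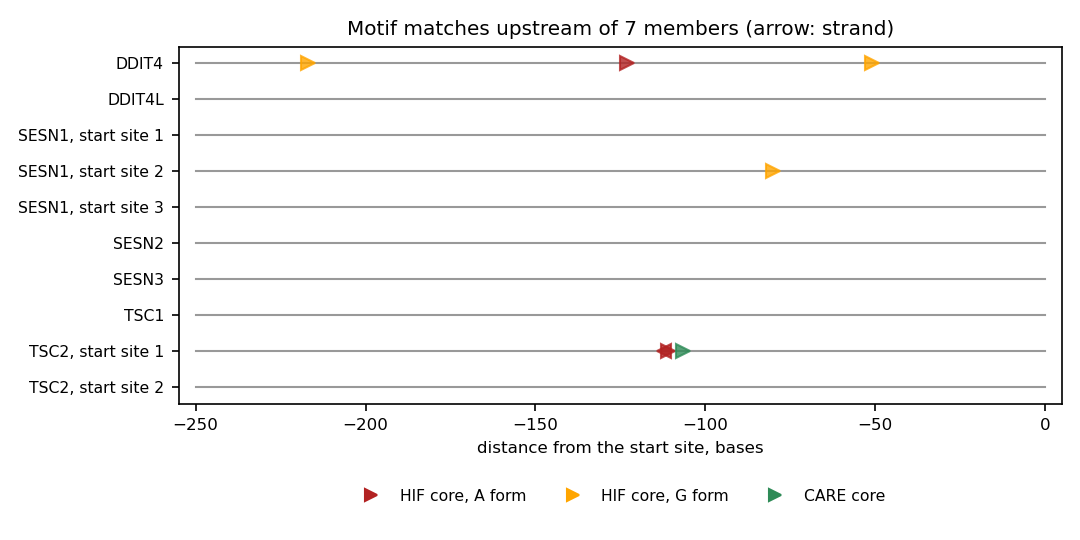
Motif matches in the 250 bases before the start sites of 7 members, by distance from the start site in bases. Each line is 1 RefSeq window, colours mark the motif and arrows its strand relative to the gene. The DDIT4 window holds 3 HIF core motifs, TSC2 the overlapping pair and the ATF4 element (CARE), and 7 of the 10 windows hold none.

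DDIT4 was upregulated by hypoxia in all 4 lines, and it was the only one of the 8 genes for which this was so. It is a short gene of 3 exons on chromosome 10 (GRCh37, 74033678 to 74035794, plus strand). In A549 cells, the 3 normoxic libraries held 259, 179 and 197 CPM and the hypoxic libraries 739, 638 and 691 CPM. In HCT-116 cells, normoxic levels of 29.7, 61.3 and 95.7 CPM stood against 758, 2323 and 1237 CPM in hypoxia. Every hypoxic library of both lines was above every normoxic one, and relative to their mean the HCT-116 libraries were the more scattered in either state. PC3 cells held 10.7, 9.45 and 11.5 CPM in normoxia and 39.0, 30.4 and 39.0 CPM in hypoxia. T47D cells held 26.9, 19.6 and 39.4 CPM in normoxia and 316, 369 and 303 CPM in hypoxia. Here too the oxygen states did not overlap.

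The log2 fold change of DDIT4 was 1.70 ± 0.14 (SE, adjusted p = 8.81e-06) in A549, 4.42 ± 0.46 (adjusted p = 4.92e-05) in HCT-116, 1.72 ± 0.14 (adjusted p = 0.000137) in PC3 and 3.45 ± 0.27 (adjusted p = 7.08e-06) in T47D cells. These are increases of 3.25-fold, 21.4-fold, 3.31-fold and 10.9-fold. Of all genes tested, DDIT4 had the 10th largest log2 increase of 13614 genes in HCT-116, the 42nd of 14085 in T47D, the 115th of 13466 in PC3 and the 193rd of 13897 in A549 cells. The call was made under every alternative processing tried, with log2 fold changes of 1.58 to 1.87 in A549, 3.92 to 4.88 in HCT-116, 1.63 to 1.84 in PC3 and 3.25 to 3.72 in T47D cells. DDIT4 is one of the 48 genes that the study chose as common HIF targets partly on these libraries, so its direction here is not independent evidence.

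The lines also differed in the normoxic level of DDIT4. Normoxic means were 211 ± 42.1 CPM in A549, 62.2 ± 33.0 in HCT-116, 28.6 ± 10.1 in T47D and 10.6 ± 1.05 in PC3 cells (SD, n = 3 each). All 6 pairs of lines differed in one edgeR fit of the 24 libraries, from 2.17-fold between HCT-116 and T47D (adjusted p = 0.00446) to 20.1-fold between A549 and PC3 cells (adjusted p = 3.41e-10). Of all genes, 65.0% differed between A549 and HCT-116, 60.5% between A549 and PC3, 67.7% between A549 and T47D, 66% between HCT-116 and PC3, 69.0% between HCT-116 and T47D and 68.1% between PC3 and T47D. In hypoxia the order was HCT-116 (1439 ± 802 CPM), A549 (689 ± 50.7), T47D (330 ± 35.0) and PC3 (36.1 ± 4.96). The hypoxic libraries of PC3 were all below the normoxic libraries of A549. In CPM, the mean difference between the states was 25.6 in PC3 and 478 in A549 cells, for log2 fold changes of 1.72 and 1.70. Per kilobase of transcript, DDIT4 moved from rank 1978 to rank 92 of 20098 genes in HCT-116, from 3692 to 327 in T47D, from 578 to 168 in A549 and from 6698 to 3396 in PC3 cells.

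DDIT4L, the paralog of DDIT4 on chromosome 4 (101107027 to 101111939, minus strand), was measurable in 2 lines only. A549 libraries held 2.91, 1.68 and 1.28 CPM in normoxia and 3.02, 2.24 and 1.87 CPM in hypoxia. HCT-116 libraries held 5.27, 18.2 and 17.5 CPM in normoxia and 7.09, 12.3 and 12.1 CPM in hypoxia. The states overlapped in both lines, with log2 fold changes of 0.28 ± 0.33 (adjusted p = 0.53) in A549 and -0.49 ± 0.37 (adjusted p = 0.284) in HCT-116. Replicate 1 was the lowest HCT-116 library in either state, and normoxic replicate 1 was the lowest of the 6 libraries. Without normoxic replicate 1 the decrease was larger, with a log2 fold change of -0.82 (adjusted p = 0.0248). In PC3 and T47D cells all 12 libraries had 0 DDIT4L counts. A count of 0 allows up to 3 counts, or 0.0532 to 0.124 CPM per PC3 library and 0.0436 to 0.0696 CPM per T47D library. Against the mean of these limits in normoxia, the HCT-116 level was at least 152-fold higher than PC3 and at least 254-fold higher than T47D, and the A549 level at least 21.8-fold and at least 36.5-fold higher. Within A549 and HCT-116 libraries DDIT4 exceeded DDIT4L per kilobase in every library. The ratio in HCT-116 was 7.18 ± 1.88 in normoxia and 197 ± 72.1 in hypoxia (SD, n = 3).

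**Figure D2:**
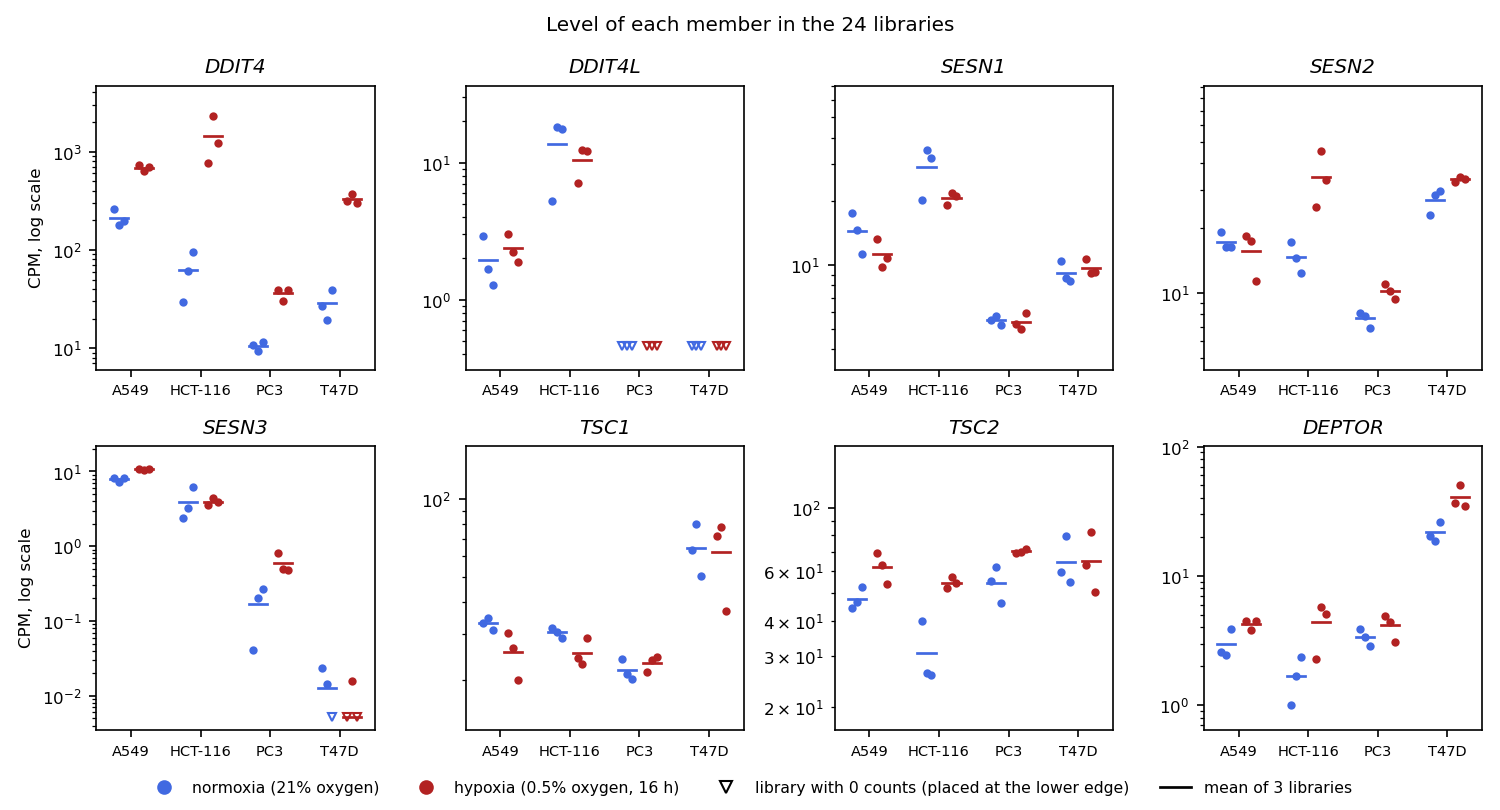
Level of each of the 8 genes in every library, in CPM on a log axis, by line and oxygen state. Points are libraries, bars the mean of 3, and open triangles libraries with 0 counts, set at the lower edge. DDIT4 is higher in hypoxia in all 4 lines without overlap, DDIT4L has 0 counts in PC3 and T47D, and DEPTOR is highest in T47D.

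Of the sestrins, SESN2 was upregulated in HCT-116 cells, SESN1 was downregulated there, and SESN3 was upregulated in A549 and PC3 cells. No sestrin was called in T47D cells. SESN2 (chromosome 1, 28586029 to 28609002, plus strand) stood at 17.3, 14.6 and 12.4 CPM in the normoxic and 25.0, 45.6 and 33.3 CPM in the hypoxic HCT-116 libraries. The states did not overlap, and the log2 fold change was 1.10 ± 0.24 (2.14-fold, adjusted p = 0.00218). This call too was made under all 15 alternatives (log2 fold change 0.88 to 1.34). In A549 cells SESN2 levels were 19.1, 16.3 and 16.4 CPM in normoxia and 18.3, 17.5 and 11.4 CPM in hypoxia (log2 fold change -0.14 ± 0.17, adjusted p = 0.557). PC3 libraries held 8.12, 7.86 and 6.90 CPM against 11.04, 10.3 and 9.41 CPM in hypoxia (0.38 ± 0.13, adjusted p = 0.052), and T47D libraries 22.9, 28.4 and 29.7 CPM against 32.7, 34.5 and 33.9 CPM (0.24 ± 0.18, adjusted p = 0.396). In these last 2 lines every hypoxic library was above every normoxic one, but neither passed the threshold. The states were separate, in either direction, for 50.6% of all genes in PC3 and 32.3% in T47D cells.

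SESN1 (chromosome 6, 109305512 to 109416049, minus strand) was at 20.2, 35.1 and 32.1 CPM in normoxic and 19.2, 21.8 and 21.3 CPM in hypoxic HCT-116 cells. The states overlapped because normoxic replicate 1 lay among the hypoxic libraries. The log2 fold change was -0.61 ± 0.22 (adjusted p = 0.0325), and the call was lost when any one of the hypoxic replicates or normoxic replicate 2 or 3 was left out (log2 fold change -0.38 to -0.62, adjusted p = 0.051 to 0.193). In A549 cells SESN1 was at 17.7, 14.7 and 11.2 CPM in normoxia and 13.3, 9.82 and 10.7 CPM in hypoxia (-0.37 ± 0.18, adjusted p = 0.128). Without A549 normoxic replicate 3 the value was -0.52 (adjusted p = 0.0316). SESN1 gave log2 fold changes of -0.08 ± 0.15 in PC3 (adjusted p = 0.712) and 0.00 ± 0.22 in T47D cells (adjusted p = 0.997), where all libraries lay between 4.99 and 5.92 CPM and between 8.38 and 10.6 CPM.

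SESN3 (chromosome 11, 94898677 to 94965705, minus strand) spanned the widest range of levels among the sestrins. A549 libraries held 8.08, 7.29 and 8.27 CPM in normoxia and 10.8, 10.5 and 10.9 CPM in hypoxia, without overlap (log2 fold change 0.44 ± 0.14, adjusted p = 0.0268). This call was lost when hypoxic replicate 1 or 2 or normoxic replicate 1 or 2 was left out (0.39 to 0.46, adjusted p = 0.0543 to 0.107), with total counts (adjusted p = 0.0815) and in one fit of all 24 libraries (adjusted p = 0.373). PC3 libraries held only 1, 11 and 9 counts in normoxia and 35, 24 and 27 counts in hypoxia, that is 0.0414, 0.203 and 0.269 CPM against 0.820, 0.489 and 0.478 CPM. The PC3 log2 fold change of 1.63 ± 0.55 (adjusted p = 0.0454) thus rested on few reads, and the call was lost when any hypoxic replicate or normoxic replicate 1 or 2 was left out (1.29 to 1.78, adjusted p = 0.0712 to 0.153). HCT-116 libraries held 2.36, 3.26 and 6.25 CPM in normoxia and 3.57, 4.39 and 3.93 CPM in hypoxia (-0.10 ± 0.33, adjusted p = 0.809), and the sign turned without normoxic replicate 3 (0.40). In T47D cells 3 SESN3 counts were found in 327412381 counts of 6 libraries, and the gene was not tested.

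Per kilobase of transcript, SESN2 was the most abundant sestrin in every group except normoxic HCT-116 cells. SESN2 made up 82.6% ± 3.79 of the sestrin transcripts in normoxic and 85.0% ± 1.41 in hypoxic T47D cells (SD, n = 3), and 69.1% ± 1.41 and 74.5% ± 2.75 in PC3 cells. In normoxic HCT-116 cells SESN1 held 51.8% ± 9.83 and SESN2 44.02% ± 11.1, and in hypoxia SESN1 held 26.7% ± 4.43 and SESN2 70.3% ± 4.81. The HCT-116 ratio of SESN2 to SESN1 was between 0.632 and 1.40 in the normoxic and between 2.13 and 3.42 in the hypoxic libraries. A549 was the only line with a sizeable SESN3 share, at 9.92% ± 1.31 in normoxia and 14.9% ± 2.66 in hypoxia.

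**Figure D3:**
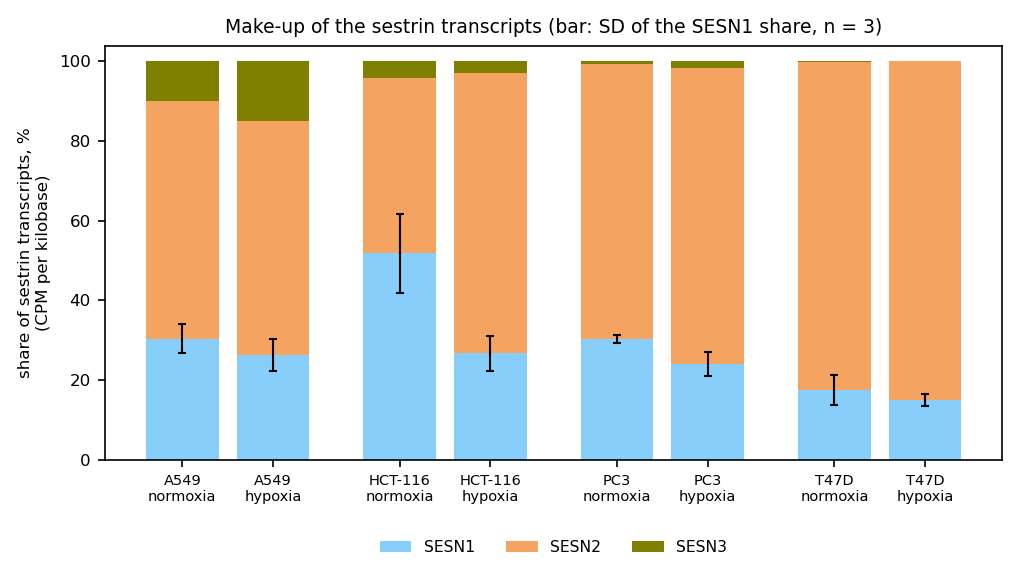
Share of SESN1, SESN2 and SESN3 among sestrin transcripts in each group, in percent of CPM per kilobase, as means of 3 libraries. Error bars are the SD of the SESN1 share. SESN1 makes up 51.8% in normoxic HCT-116 cells and 26.7% in hypoxic ones, and SESN2 is the largest share elsewhere.

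TSC2 was upregulated in A549, HCT-116 and PC3 cells, while its partner TSC1 was called in no line. TSC2 encodes the GTPase-activating subunit and TSC1 the subunit that stabilizes it. TSC2 (chromosome 16, 2097968 to 2139492, plus strand) was at 40.1, 26.3 and 25.8 CPM in normoxic and 52.0, 57.1 and 54.4 CPM in hypoxic HCT-116 cells (log2 fold change 0.70 ± 0.21, adjusted p = 0.0156). A549 cells held 44.4, 46.5 and 52.6 CPM in normoxia and 69.3, 63.0 and 53.7 CPM in hypoxia (0.37 ± 0.12, adjusted p = 0.0349). The states did not overlap in either line, but in A549 hypoxic replicate 3 lay just above normoxic replicate 3. PC3 cells held 55.2, 62.0 and 46.2 CPM against 69.0, 69.6 and 71.7 CPM (0.31 ± 0.10, adjusted p = 0.04), again without overlap. T47D cells held 59.3, 79.4 and 54.6 CPM against 62.8, 82.0 and 50.6 CPM (-0.07 ± 0.23, adjusted p = 0.856).

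The HCT-116 call of TSC2 was kept whichever library was left out (log2 fold change 0.62 to 1.02), and the A549 and PC3 calls were not. The A549 call was lost without hypoxic replicate 1 or 2 or normoxic replicate 1 or 2 (0.29 to 0.37, adjusted p = 0.0946 to 0.131). The PC3 call was lost without any one of the hypoxic replicates or normoxic replicate 1 or 3 (0.22 to 0.33, adjusted p = 0.0527 to 0.115). Both calls were also lost with total counts (adjusted p = 0.127 in A549 and 0.0783 in PC3) and in one fit of all 24 libraries (adjusted p = 0.171 and 0.223). Exons of PKD1 on the opposite strand overlap 784 bases, or 12.2%, of the TSC2 transcript. The strand setting of the counting is not given in the sources used here, so reads of the 2 genes may not have been told apart there.

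TSC1 (chromosome 9, 135766735 to 135822261, minus strand) was at 33.3, 34.8 and 31.2 CPM in normoxic and 30.4, 26.5 and 20.04 CPM in hypoxic A549 cells. HCT-116 cells held 31.7, 30.8 and 29.2 CPM in normoxia and 24.4, 23.2 and 29.1 CPM in hypoxia. In both lines every hypoxic library was below every normoxic one, but in HCT-116 hypoxic replicate 3 lay just below normoxic replicate 3. Oxygen states were also separate for 47.9% of all genes in A549 and 60.4% in HCT-116 cells. The TSC1 log2 fold changes of -0.37 ± 0.15 (adjusted p = 0.0646) in A549 and -0.38 ± 0.19 (adjusted p = 0.104) in HCT-116 did not pass the threshold. Without A549 hypoxic replicate 1, the A549 value was -0.50 (adjusted p = 0.0213). PC3 cells held 24.03, 21.1 and 20.2 CPM against 21.4, 23.9 and 24.6 CPM (0.05 ± 0.11, adjusted p = 0.752). T47D cells held 63.5, 79.9 and 50.2 CPM against 71.7, 78.1 and 36.9 CPM (-0.14 ± 0.27, adjusted p = 0.754). In T47D cells replicate 2 was the highest and replicate 3 the lowest library of its state for TSC1 and for TSC2 alike, and these differences between replicates were larger than those between oxygen states.

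The ratio of TSC2 to TSC1 within a library does not depend on the scaling of libraries. Per kilobase, TSC2 exceeded TSC1 in all 24 libraries. The ratio was 1.95 ± 0.272 in normoxic and 3.28 ± 0.277 in hypoxic A549 cells (SD, n = 3), and 1.34 ± 0.305 and 2.89 ± 0.399 in HCT-116 cells. The highest normoxic value was below the lowest hypoxic value in both lines (2.26 and 3.06 in A549, 1.69 and 2.51 in HCT-116). In PC3 cells the ratio was 3.36 ± 0.496 and 4.04 ± 0.240, and in T47D cells 1.35 ± 0.103 and 1.47 ± 0.335, with overlap in both.

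DEPTOR, the inhibitory subunit that binds mTOR directly, was upregulated in HCT-116 and T47D cells. The gene lies on chromosome 8 (120885957 to 121063157, plus strand). T47D libraries held 20.4, 18.8 and 26.2 CPM in normoxia and 36.7, 50.2 and 34.7 CPM in hypoxia (log2 fold change 0.82 ± 0.21, adjusted p = 0.0252). HCT-116 libraries held 1.01, 1.70 and 2.38 CPM in normoxia and 2.26, 5.80 and 5.07 CPM in hypoxia (1.25 ± 0.40, adjusted p = 0.0187). The T47D states did not overlap. In HCT-116, hypoxic replicate 1 lay below normoxic replicate 3. The T47D call was lost without hypoxic replicate 2 or normoxic replicate 1 or 2 (0.65 to 0.79, adjusted p = 0.116 to 0.149), and the HCT-116 call without hypoxic replicate 2 or normoxic replicate 1 (1.0 and 1.05, adjusted p = 0.0633 and 0.0614). A549 libraries held 2.60, 2.47 and 3.88 CPM against 4.48, 3.80 and 4.46 CPM (0.50 ± 0.23, adjusted p = 0.104), and without normoxic replicate 3 the value was 0.74 (adjusted p = 0.0238). PC3 libraries held 3.89, 3.37 and 2.87 CPM against 4.94, 4.44 and 3.10 CPM (0.25 ± 0.22, adjusted p = 0.388).

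In normoxia, DEPTOR was 7.29-fold higher in T47D than in A549 cells (adjusted p = 9.59e-09), 6.47-fold higher than in PC3 cells (adjusted p = 3.35e-08) and 12.8-fold higher than in HCT-116 cells (adjusted p = 2.63e-10). PC3 (3.38 ± 0.514 CPM) and A549 cells (2.98 ± 0.782 CPM) did not differ beyond their spread (adjusted p = 0.646), and HCT-116 cells were lowest (1.69 ± 0.685 CPM), below A549 (adjusted p = 0.0241). The antisense gene DEPTOR-AS1 overlaps 9.61% of the DEPTOR transcript.

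The normoxic order of the other members differed from that of DDIT4. SESN1 was highest in HCT-116 (29.1 ± 7.88 CPM), then A549 (14.5 ± 3.22), T47D (9.14 ± 1.10) and PC3 cells (5.48 ± 0.266), and each neighbour differed (adjusted p at most 0.00373). SESN2 was highest in T47D (27.0 ± 3.57 CPM), followed by A549 (17.3 ± 1.60) and HCT-116 (14.8 ± 2.47), which did not differ beyond their spread (adjusted p = 0.31), and PC3 cells (7.63 ± 0.643). SESN3 was highest in A549 (7.88 ± 0.524 CPM), 1.99-fold above HCT-116 (adjusted p = 0.0102). T47D cells had the most TSC1 (64.5 ± 14.9 CPM), 1.95-fold above A549 (adjusted p = 0.000236), and A549 and HCT-116 did not differ beyond their spread (adjusted p = 0.649). For TSC2, neither T47D and PC3 (64.5 ± 13.2 and 54.5 ± 7.92 CPM, adjusted p = 0.249) nor PC3 and A549 cells (adjusted p = 0.393) differed beyond their spread, and HCT-116 cells were lowest (30.7 ± 8.10 CPM).

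Counted over the list, 3 of 8 members tested were upregulated in A549 cells, where 17.6% of all genes tested were, and none was downregulated (17.8% of all genes). In HCT-116 cells 4 of 8 were upregulated (23.3% of all genes) and SESN1 was downregulated (27.0%), with 50.3% of all genes called in either direction. In PC3 cells 3 of 7 were upregulated (16.6%) and none was downregulated (15.7%), and in T47D cells 2 of 6 were upregulated (6.55%) and none was downregulated (6.69%). The oxygen states did not overlap for 4 members in A549, 4 in HCT-116, 4 in PC3 and 3 in T47D cells, against 47.9%, 60.4%, 50.6% and 32.3% of all genes. DDIT4L did not enter the test in PC3 and T47D cells, nor SESN3 in T47D cells, because of their low counts. The members were chosen with earlier results of these data known, so the numbers of called members are descriptions. The median log2 fold change of the members tested was 0.33 in A549, 0.30 in HCT-116, 0.31 in PC3 and 0.12 in T47D cells, beside medians of -0.01, -0.03, -0.01 and -0.01 over all genes. With libraries scaled to total counts, the median of all genes moved by -0.12 in A549 and -0.11 in T47D cells, and the upregulated share of all calls fell from 49.8% to 33.9% in A549 and from 49.5% to 32.1% in T47D cells. Under that scaling, 2 members were upregulated in PC3 cells (DDIT4 and SESN3), DDIT4 was the only member upregulated in A549 cells and TSC1 was downregulated there (log2 fold change -0.48, adjusted p = 0.0306). Of all genes, 14.2% were then upregulated in PC3 and 12.8% in A549 cells, and 24.9% were downregulated in A549 cells.

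**Figure D4:**
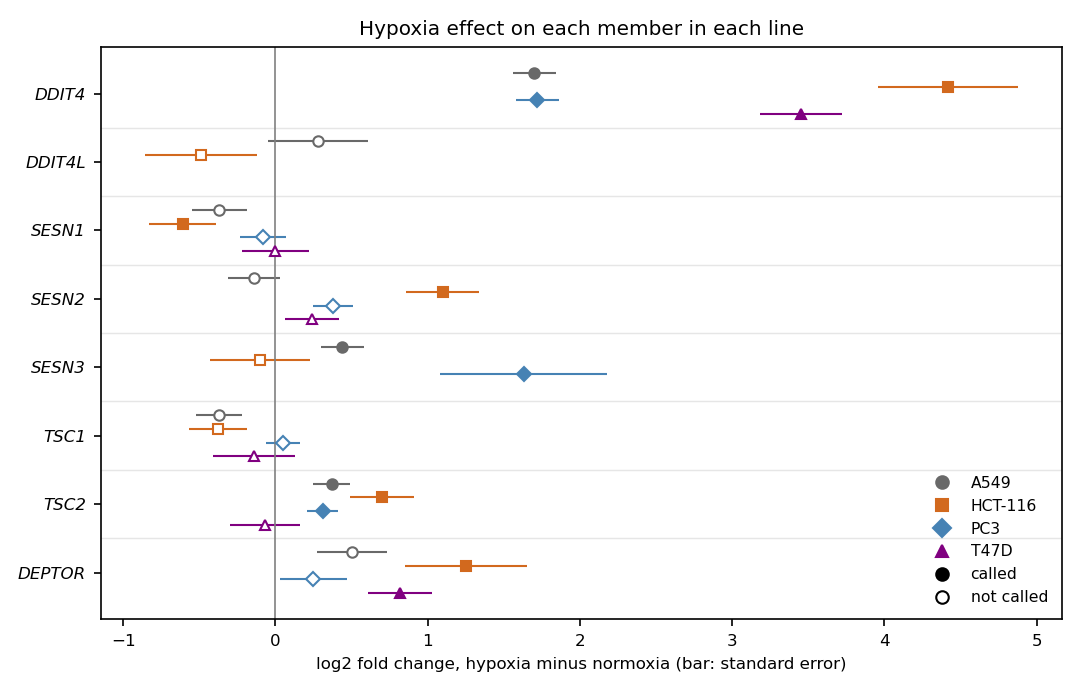
Log2 fold change, hypoxia minus normoxia, of the 8 genes in each line, with the standard error as bars. Filled symbols passed the test (adjusted p under 0.05, fold change over 1.2). DDIT4 lies at 1.70 and 1.72 in A549 and PC3 and at 3.45 and 4.42 in T47D and HCT-116, and all other values lie between -0.61 and 1.63.

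The hypoxia effect differed between lines for DDIT4 (adjusted p = 0.000381) and SESN2 (adjusted p = 0.00939), as the interaction of line and oxygen state in one edgeR fit of 24 libraries. Of 16089 genes, 18.3% passed this test. The other 6 members did not pass (TSC2 adjusted p = 0.123, SESN3 0.126, DEPTOR 0.227, SESN1 0.281, TSC1 0.553, DDIT4L 0.831). Each of the 6 pairs of lines was compared in the same fit, with p values adjusted over all genes within a pair. The DDIT4 effect was larger in HCT-116 than in A549 by 2.83 ± 0.47 on the log2 scale (adjusted p = 0.000763, passed by 16.7% of all genes) and than in PC3 cells by 2.76 ± 0.48 (adjusted p = 0.000846, 14.9% of all genes). It was larger in T47D than in A549 cells by 1.82 ± 0.47 (adjusted p = 0.0373, 2.11% of all genes) and than in PC3 cells by 1.75 ± 0.47 (adjusted p = 0.0493, 2.25% of all genes). HCT-116 and T47D differed by 1.01 ± 0.46 (adjusted p = 0.161, 9.07% of all genes), and PC3 exceeded A549 by 0.07 ± 0.47 (adjusted p = 1, 0.758% of all genes). The 4 pairs called for DDIT4 fell to 2 without replicate 1 of every group, to 0 without replicate 2 and to 2 without replicate 3, and 3 were called with total counts.

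For SESN2, the effect in HCT-116 was larger than in A549 by 1.37 ± 0.28 (adjusted p = 0.00354) and than in T47D cells by 0.91 ± 0.27 (adjusted p = 0.0378), while the difference from PC3 cells was 0.81 ± 0.28 (adjusted p = 0.0516). The SESN3 effect was larger in PC3 than in HCT-116 cells by 1.68 ± 0.57 (adjusted p = 0.0473), on the few PC3 counts given above. The TSC2 effect in HCT-116 exceeded that in T47D by 0.81 ± 0.26 (adjusted p = 0.0505). Both interactions depended on the replicates. Without replicate 2 of every group, the adjusted p was 0.0606 for DDIT4 and 0.345 for SESN2, and without replicate 3 it was 0.0911 for SESN2. Hypoxic replicate 2 was the highest HCT-116 library for DDIT4, SESN2, TSC2 and DEPTOR, and the highest of the hypoxic ones for DDIT4L, SESN1 and SESN3. For TSC1 it was the lowest.

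The genes whose levels moved most like DDIT4 across the 24 libraries, after the mean of each line was subtracted, were INSIG2 (Pearson r = 0.986), ANGPTL4 (0.980), KDM3A (0.976), P4HA1 (0.976) and GBE1 (0.976), out of 11269 genes. INSIG2 retains the sterol sensor in the endoplasmic reticulum, ANGPTL4 inhibits lipoprotein lipase, KDM3A is a histone demethylase, P4HA1 hydroxylates collagen and GBE1 branches glycogen. All 5 had larger log2 fold changes in HCT-116 and T47D than in A549 and PC3 cells, as DDIT4 did. Such a likeness is built into their choice by correlation over the same libraries, so it is not further evidence. ANGPTL4, KDM3A, P4HA1 and GBE1 are also among the common HIF targets that the study chose partly on these libraries. The log2 fold changes of INSIG2 were 1.09 in A549, 2.22 in HCT-116, 0.86 in PC3 and 1.48 in T47D, and those of ANGPTL4 were 3.43, 6.14, 2.47 and 4.66. The genes most like SESN2 were DUSP8 (0.928), PER1 (0.928), SYVN1 (0.918), AKAP8L (0.917) and WNT7B (0.916). PER1, a clock repressor, had log2 fold changes of 0.13, 2.09, 0.64 and 0.41 in the same order of lines. The libraries share line, oxygen state and depth, and these correlations are descriptions.

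Counts of called genes in the lists below stand beside the shares of all genes tested, of which 17.6% were upregulated and 17.8% downregulated in A549, 23.3% and 27.0% in HCT-116, 16.6% and 15.7% in PC3 and 6.55% and 6.69% in T47D cells. With total counts, 12.8% of all genes were upregulated and 24.9% downregulated in A549, and 22.4% and 25.4% in HCT-116 cells. Those shares were 14.2% and 18.9% in PC3 and 4.73% and 10.0% in T47D cells. With RLE scaling they were 24.9% and 25.8% in HCT-116 cells. The lists too were chosen with earlier results of these data known, so these counts of called genes are descriptions. Upstream of the TSC complex, 9 genes for its smaller subunit TBC1D7 and for the kinases that phosphorylate TSC2 or their activator PDPK1 were examined. Of these, 5 were upregulated in A549, 6 in HCT-116, 5 in PC3 and 0 of 7 tested in T47D cells, and TBC1D7 was the only one downregulated with TMM scaling, in HCT-116 cells (log2 fold change -1.45 ± 0.28, adjusted p = 0.000969). GSK3B, which phosphorylates TSC2, was upregulated in A549 (0.51), HCT-116 (1.06) and PC3 cells (0.58). The median log2 fold change of the list was 0.31, 0.62, 0.29 and 0.17 in A549, HCT-116, PC3 and T47D cells. AMPK is the energy sensor that also phosphorylates TSC2, and LKB1 is its activating kinase. The labels do not say whether LKB1 is functional in each line. Among 9 AMPK and LKB1 genes, 1 was downregulated in A549, 5 in HCT-116, 5 in PC3 and 1 in T47D cells, and 2 were upregulated in HCT-116 and 2 in PC3 cells. The counts of 1 in A549 and T47D cells are close to or below the downregulated shares of all genes there (17.8% and 6.69%). PRKAB2, a beta subunit, had log2 fold changes of -0.71 in A549, -1.26 in HCT-116 and -0.48 in PC3 cells, all called, and -0.57 in T47D cells (adjusted p = 0.089). PRKAG1, a gamma subunit, was downregulated in HCT-116 (-1.22) and PC3 cells (-0.45). The medians were -0.19, -0.58, -0.39 and -0.24 in A549, HCT-116, PC3 and T47D cells. With libraries scaled to total counts, 5 of the 9 were downregulated in A549 and 2 in T47D cells, beside 24.9% and 10.0% of all genes.

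On the lysosome, RAG GTPases and the Ragulator complex bring mTORC1 to RHEB, and folliculin acts on the RAG proteins. Of 13 such genes, 8 were downregulated and 2 upregulated in HCT-116 cells (median log2 fold change -0.80), where 50.3% of all genes were called, while 5 were upregulated and 1 downregulated in A549 cells (median 0.14). PC3 cells had 1 upregulated and 2 downregulated (median -0.11) and T47D cells 1 of each (median -0.08). With total counts, 2 were downregulated in A549 (median 0.02) and 2 in T47D cells (median -0.19). RRAGD was upregulated in A549 (1.60 ± 0.21), HCT-116 (1.61 ± 0.22) and T47D cells (2.23 ± 0.25), with 0.07 ± 0.35 in PC3 cells (adjusted p = 0.898). LAMTOR3, a Ragulator subunit, was downregulated in HCT-116 (-1.82), PC3 (-0.60) and T47D cells (-1.03), with -0.28 in A549 cells (adjusted p = 0.164). The sestrins' partners and the other amino acid sensors of the GATOR complexes gave 3 downregulated genes of 13 in A549, 6 in HCT-116, 3 in PC3 and 0 in T47D cells, with 2 upregulated in HCT-116 and 1 in PC3. With RLE scaling 4, and with total counts 3, were downregulated in HCT-116 cells, and with total counts 5 were in A549 and 1 in T47D cells. MIOS, a GATOR2 subunit, was downregulated in A549 (-0.38), HCT-116 (-0.92) and PC3 cells (-0.41). The medians were -0.20 in A549, -0.28 in HCT-116, -0.06 in PC3 and -0.12 in T47D cells.

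For mTORC1 itself and RHEB, 1 of 8 genes was upregulated in A549 (0 with total counts), 2 in HCT-116 and 3 in PC3 cells. In HCT-116 cells 2 were downregulated. The A549 count is below the upregulated share of all genes (17.6%), and both HCT-116 counts are close to the shares there (23.3% and 27.0%). RPTOR, the subunit that recruits substrates, was upregulated in HCT-116 (1.11 ± 0.27) and PC3 cells (0.64 ± 0.12). RHEB was downregulated in HCT-116 cells (-1.19 ± 0.24, adjusted p = 0.00129), where RHEBL1 was the other gene downregulated, and had -0.09 in A549, -0.36 in PC3 and -0.39 in T47D cells without passing. The medians were 0.11, 0.15, -0.05 and 0.10 in A549, HCT-116, PC3 and T47D cells, and with total counts those of A549 and T47D were -0.01 and -0.02, and 3 of the 8 were downregulated in PC3 cells. Of 12 mTORC1 substrates, 4 were upregulated in A549, 5 in HCT-116, 5 in PC3 and 1 in T47D cells, and none was downregulated, except that 2 were in A549 cells with total counts. Their medians were 0.27, 0.50, 0.19 and 0.15. GRB10, an adaptor that dampens insulin signalling, was upregulated in A549 (1.40), HCT-116 (0.95) and PC3 cells (0.67), and LPIN1, a phosphatidate phosphatase, in HCT-116 (0.68), PC3 (0.64) and T47D cells (1.5). Of 4 genes of mTORC2, the sister complex, PRR5L was upregulated in A549 and T47D cells, and no other was called, and with total counts none was called in A549 cells. Their medians were 0.15, 0.04, 0.25 and 0.02, and -0.09 in T47D cells with total counts.

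ATF4 and p53 drive stress programs known to induce sestrins. Of ATF4 and 11 of its targets, 3 were upregulated and 6 downregulated in A549 cells, 4 and 2 of 11 tested in HCT-116, 3 and 4 in PC3 and 2 and 3 in T47D cells. In HCT-116 cells 23.3% of all genes were upregulated and 27.0% downregulated. With total counts, 6 were downregulated in PC3 cells, and 1 was upregulated and 5 were downregulated in T47D cells. PSAT1, of serine synthesis, was downregulated in A549 (-0.71), HCT-116 (-0.89) and T47D cells (-1.08), and the cystine transporter SLC7A11 in A549 (-0.68), HCT-116 (-0.71) and PC3 cells (-0.60). ATF4 mRNA was downregulated in A549 cells (-0.62, adjusted p = 0.00488) and was not called elsewhere. TRIB3 and VLDLR were each upregulated in 3 lines. The medians were -0.57, 0.21, -0.17 and -0.36 in A549, HCT-116, PC3 and T47D cells. Of 12 p53 targets, 6 were upregulated in HCT-116, 3 in T47D, 2 in A549 and 1 in PC3 cells, and 1 was downregulated in A549, 2 in HCT-116 and 1 in PC3 cells. The upregulated counts in A549 and PC3 cells are no higher than the shares of all genes (17.6% and 16.6%). The labels do not give the p53 status of the lines, and whether p53 acted on these genes was not tested. With total counts 1 was upregulated in A549, and 1 was downregulated in HCT-116 and 2 in PC3 cells. BBC3, which promotes apoptosis, was upregulated in A549 (0.67), HCT-116 (1.61) and T47D cells (1.83), and the cytokine gene GDF15 in HCT-116 (2.37) and PC3 cells (0.65). In HCT-116 cells CDKN1A (1.46), BTG2 (1.03), XPC (0.92) and BAX (0.62) were upregulated as well. RRM2B (-0.89) and MDM2 (-0.53, adjusted p = 0.0358) were downregulated there. The median log2 fold change was 0.00 in A549, 0.51 in HCT-116, -0.01 in PC3 and 0.32 in T47D cells. SESN1, itself a p53 target, was downregulated in HCT-116 cells, a call lost in most fits with a single library left out.

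SESN1 and SESN3 are also known FOXO targets, and other FOXO targets were examined beside them. Of 7 genes tested, 6 were upregulated and 1 downregulated in A549 cells and 7 upregulated in HCT-116 cells, and of 8 tested, 4 were upregulated and 2 downregulated in PC3 cells and 4 upregulated in T47D cells. The upregulated shares of all genes were 17.6%, 23.3%, 16.6% and 6.55% in A549, HCT-116, PC3 and T47D cells. CCNG2, an atypical cyclin, was upregulated in A549 (2.56), HCT-116 (2.33), PC3 (1.29) and T47D cells (1.94), and CITED2, a negative regulator of HIF, in the same lines (2.43, 1.60, 0.40 and 2.60). CITED2 is also a known HIF target. The median log2 fold change of the list was 0.89, 1.60, 0.27 and 0.74 in A549, HCT-116, PC3 and T47D cells.

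**Figure D5:**
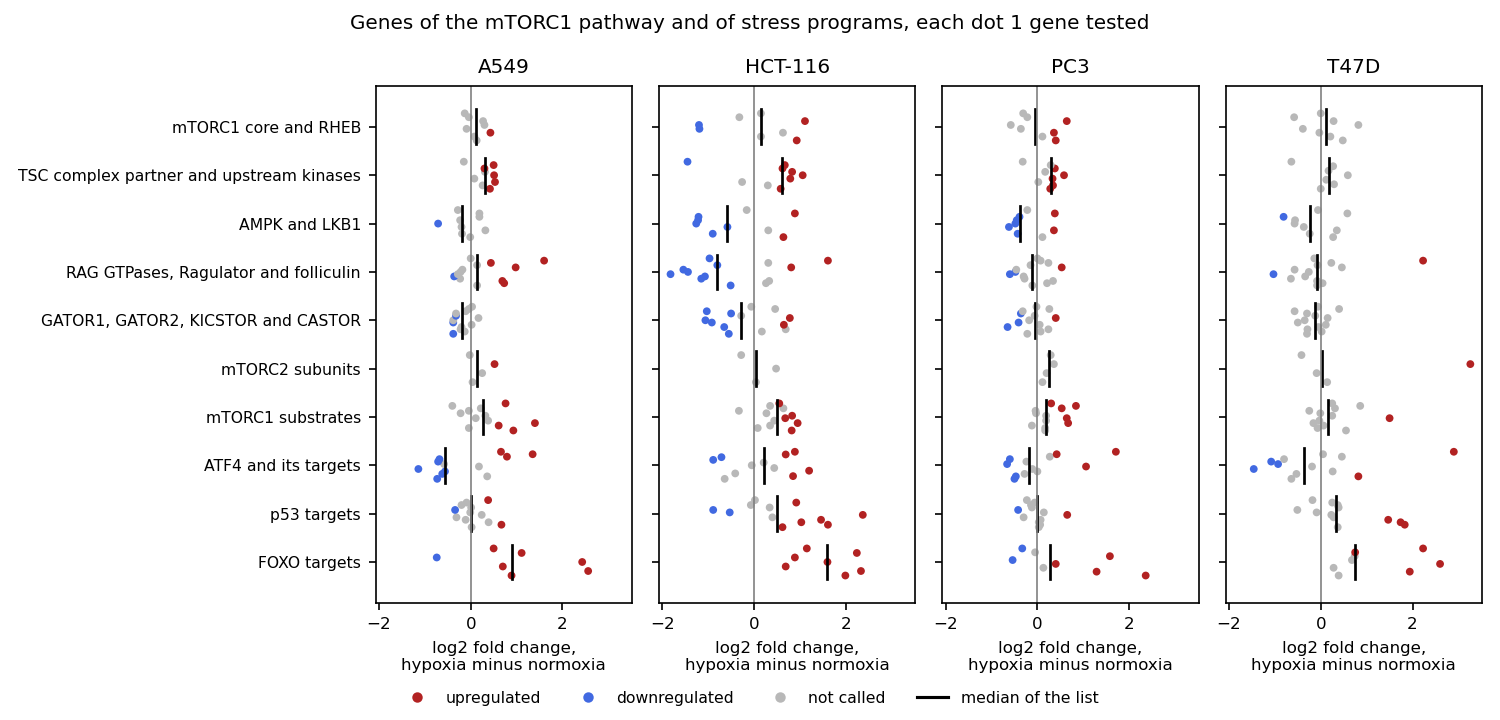
Log2 fold change, hypoxia minus normoxia, of the genes of 10 lists in each line. Each dot is 1 gene tested, red upregulated, blue downregulated and grey not called, and black bars are list medians. In HCT-116 cells the median of the RAG GTPase list is -0.80 and that of the FOXO targets 1.60.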

How the data were processed

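The authors made the deposited counts, whole fragments per gene symbol without normalization, from polyadenylated RNA sequenced with a directional kit. Per the labels and the study's methods, reads were trimmed (Trim Galore 0.3.3), aligned to GRCh37 (HISAT2 2.05), filtered for unique position (Picard 2.0.1) and counted on UCSC genes (HTSeq 0.5.4p3, intersection-strict). The strand setting is not given in the sources used here. HepG2 and RCC4 libraries and the ChIP-seq data were not used here.

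From these counts, edgeR 4.0.16 in R 4.3.3 (filterByExpr, TMM, quasi-likelihood test) was fitted on all genes of each line. P values were adjusted by Benjamini-Hochberg over the genes tested, and a call needed both an adjusted p below 0.05 and a change of more than 1.2-fold. Interactions of line and oxygen state, and pairs of lines, were tested in one fit of 24 libraries. Levels are CPM after TMM over all libraries. Levels per kilobase used 1 transcript per gene of GENCODE (GRCh37), found for 20098 of 23106 symbols (87.0%). A count of 0 was read as at most 3 counts, which covers counting error only, as the libraries carry no molecular identifiers. Totals were 22698584 to 62850747 counts. Each test was tried on simulated counts first.

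The members and gene lists were chosen with earlier results of these data known. All 8 members are named, and of each list the genes called in 1 direction in all 4 lines and the 2 with the largest mean change among those tested in all lines and called in at least 1. For mTORC2 this rule names none, and some genes are not reported here by name. The 5 genes most like DDIT4 and SESN2 had the highest r over 24 libraries among genes with a mean log2 CPM over 1. PDK1, ATF4, MDM2, CDKN1A, BTG2, XPC, BAX, RRM2B, RHEBL1, PRR5L, TRIB3, VLDLR and PKD1 were named after their values or positions were seen.

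The labels number replicates 1 to 3 in both oxygen states. Same-numbered T47D libraries deviated together (r = 0.147, 0.279 and 0.261), so the numbers pair them by this check, although no label says what a number marks. The replicate block changed no member's call in T47D cells (DDIT4 3.50, adjusted p = 2.56e-05, and DEPTOR 0.81, adjusted p = 0.0223). Alternatives were DESeq2 1.42.0, RLE and total-count scaling, no filter on low counts or a minimum mean of 50, the block on replicate number, a joint fit of the 24 libraries, stricter thresholds (1.5-fold, or 0.01 for the adjusted p) and leaving out each library.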

Additional observations from a re-analysis of the deposited data

Results flagged for a closer look

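The hypoxia effect differed between the 4 lines for 2 of the 8 genes by the interaction test of edgeR. Of all 16089 genes tested, 18.3% passed it. For DDIT4 the adjusted p was 0.000381, with log2 fold changes of 1.70 in A549, 4.42 in HCT-116, 1.72 in PC3 and 3.45 in T47D cells, higher in all 3 hypoxic libraries than in any normoxic one in each line. For SESN2 the adjusted p was 0.00939, with log2 fold changes of -0.14, 1.10, 0.38 and 0.24. Hypoxic replicate 2 was the highest HCT-116 library for both genes. Without replicate 2 of every group, the adjusted p was 0.0606 for DDIT4 and 0.345 for SESN2. The part of that library in these differences was not tested.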

How the results depend on the processing

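DDIT4 in all 4 lines and SESN2 in HCT-116 cells kept their calls under all 15 alternatives, and TSC2 in HCT-116 under 14. The number of upregulated members in A549 cells (3) was 1 with total-count scaling, with one fit of all 24 libraries, at a fold change over 1.5 and at an adjusted p under 0.01, and 1 to 4 when single libraries were left out. The number downregulated there (0) was 1 with total counts and 1 with the replicate block (TSC1, -0.39, adjusted p = 0.0328), and 0 to 1 with libraries left out. At an adjusted p under 0.01, 2 members were upregulated and 0 downregulated in HCT-116 (main 4 and 1), 1 upregulated in PC3 (main 3) and 1 in T47D cells (main 2). With single libraries left out, these counts were 3 to 4 and 0 to 2 in HCT-116, 1 to 2 in PC3 and 1 to 2 in T47D cells. Members whose effect differed between lines (2) were 0 to 2 with a replicate left out. Pairs of lines that differed, an alternative chosen after seeing the data, were 0 to 2 for DDIT4 (main 4) and 0 to 2 for SESN2 (main 2), with 0 for both without replicate 2, and 3 for DDIT4 with total counts.

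Signs turned only for values that had not been called. With single libraries left out, SESN2 in A549 was -0.25 to 0.06 (positive without hypoxic replicate 3), SESN3 in HCT-116 -0.31 to 0.40 (0.02 without hypoxic replicate 1), TSC1 in T47D -0.33 to 0.13 and TSC2 in T47D -0.26 to 0.12. SESN3 in HCT-116 was 0.00 with the replicate block. In T47D cells SESN1 (main 0.00) was -0.10 with total counts, -0.06 without hypoxic replicate 1, -0.03 without normoxic replicate 2 and -0.08 without normoxic replicate 3. TSC2 was 0.01 with one fit of all libraries, 0.08 without hypoxic replicate 3 and 0.12 without normoxic replicate 2, and TSC1 was 0.13 and 0.05 without the same 2 libraries. The cause was not tested. Same-numbered libraries correlated with r of 0.049 to 0.207 in A549, 0.045 to 0.276 in HCT-116 and 0.070 to 0.098 in PC3, and every hypoxic library correlated best with its own number, a hint from the data and not from the design. With the replicate block the calls of TSC2 in A549 (adjusted p = 0.0533) and SESN3 in PC3 (adjusted p = 0.0654) were lost, and no other member's call was. DDIT4L in PC3 and T47D cells (0 counts) and SESN3 in T47D cells (3 counts) had too few counts for the test, and SESN3 in PC3 rested on 107 counts over 6 libraries.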
